A study of Mus musculus with 17 samples.

Results

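Gpx4 and 6 genes of the systems that act beside it against ferroptosis (Aifm2, Gch1, Dhodh, Slc7a11, Slc3a2 and Vkorc1l1) were examined in cells sorted from mouse lung tumors. The 7 genes were chosen by name, out of 17555 gene names listed in any of 3 deposited tables. The study compared KL mice, which carried inducible tumor-forming alleles with floxed Lkb1 among them, with KLG4 mice, which carried in addition the Gpx4m/m allele. Tumor cells and the macrophage populations labelled TRMs and MDMs were each profiled by bulk RNA sequencing in 2 KL and 2 KLG4 libraries, 12 libraries in all, and 5 further samples (CD8+ T cells and monocytes) were not analysed here.

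All mice had received Ad-Cre into the nose and then tamoxifen, and their lungs were taken 10 weeks after Ad-Cre. Cre switches on tumor formation and deletes floxed Lkb1 wherever the virus enters a cell. The Gpx4m allele holds rox sites around exons 5 to 7 and an inducible Dre recombinase, kept from a CAG promoter by a STOP cassette. Cre followed by tamoxifen thus removes those exons in cells that saw Cre. KL mice carried no modified Gpx4 allele but had the same virus and the same tamoxifen. Tumor cells were sorted as EpCAM-positive cells without CD45 and CD31. A legend of the study gives mice as the replicates of the tumor cell data, without saying whether mice were pooled. The labels do not say whether the 2 libraries of a group came from separate mice, so each p-value measures only the spread between these libraries, which may be technical.

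Ferroptosis is a form of cell death driven by iron-dependent peroxidation of membrane phospholipids. GPX4 is a selenoenzyme that uses glutathione to reduce lipid hydroperoxides, and glutathione synthesis depends on cystine brought in by system xc-, an antiporter made of the transport chain SLC7A11 and the chaperone chain SLC3A2. The other routes make or regenerate radical-trapping molecules: AIFM2 (also called FSP1) reduces coenzyme Q and vitamin K, DHODH reduces coenzyme Q in mitochondria, GCH1 starts tetrahydrobiopterin synthesis, and VKORC1L1 reduces vitamin K.

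All 7 genes are protein-coding, and their positions in the deposited tumor cell table were those of GRCm38. Gpx4 lies at chr10:80047166-80056439 on the plus strand. Slc7a11 lies at chr3:49892526-50443614, Slc3a2 at chr19:8706882-8723369 and Gch1 at chr14:47153895-47189413, all on the minus strand. Aifm2 (chr10:61715263-61739260) and Vkorc1l1 (chr5:129941970-129986692) are on the plus strand, and Dhodh (chr8:109591343-109608673) is on the minus strand. Exons 5 to 7 of the principal Gpx4 transcript span chr10:80055923-80056439 and hold 339 of its 959 bases, 115 of them among its 591 coding bases. The tables counted Gpx4 over all 1724 exonic bases of the gene, of which those 339 bases make up 19.7%, so a Gpx4 value also counts the part of the gene that Dre leaves in place. Aifm2 shares 233 exonic bases (5.65% of its own) with H2afy2 on the opposite strand, and counting did not use strand.

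The upstream sequences of the antiporter's 2 chains and of Gch1 are shown because, in the tumor cell results given further on, Slc7a11 and Gch1 rose and Slc3a2 gave no call. Each sequence runs from 250 bases before to 50 bases after a start given by RefSeq on GRCm38.p6, read on the gene's strand (Slc7a11 chr3:50443564-50443863, Slc3a2 chr19:8713848-8714147, Gch1 chr14:47189364-47189663). The Slc3a2 start used lies inside the span given above, so the sequence does not cover the outermost start of that gene, and the same holds for the window searched for Aifm2. Capitals mark matches to TGATGNAA, the core of the amino acid response element, on either strand.
Slc7a11: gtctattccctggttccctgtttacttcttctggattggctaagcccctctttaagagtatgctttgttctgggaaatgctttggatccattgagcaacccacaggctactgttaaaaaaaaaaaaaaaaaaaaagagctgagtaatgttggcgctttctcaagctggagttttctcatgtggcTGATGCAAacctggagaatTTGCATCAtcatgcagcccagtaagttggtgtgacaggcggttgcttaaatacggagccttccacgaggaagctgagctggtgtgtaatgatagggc
Slc3a2: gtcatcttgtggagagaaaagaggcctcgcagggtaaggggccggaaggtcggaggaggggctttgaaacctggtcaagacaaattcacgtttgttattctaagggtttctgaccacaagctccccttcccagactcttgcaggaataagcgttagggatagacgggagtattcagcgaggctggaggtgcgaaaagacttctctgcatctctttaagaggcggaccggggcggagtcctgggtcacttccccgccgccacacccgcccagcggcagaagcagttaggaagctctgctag
Gch1: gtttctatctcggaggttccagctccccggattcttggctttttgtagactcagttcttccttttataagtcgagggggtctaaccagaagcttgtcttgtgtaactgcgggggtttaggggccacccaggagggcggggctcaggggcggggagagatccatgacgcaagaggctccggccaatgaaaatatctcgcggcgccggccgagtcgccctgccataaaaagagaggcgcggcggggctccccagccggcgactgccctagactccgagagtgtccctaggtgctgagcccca
Slc7a11 held 2 matches, on opposite strands, with their first bases 66 and 47 bases before the start. At least 1 match was present in 1304 of 32851 promoters of this length (3.97%), and 2 or more in 23 of them (0.0700%). None of the other 5 members with a RefSeq entry held this core, and none of the 6 held TGACNNNGC, the core of the antioxidant response element, which 12.4% of all promoters held. Dhodh had no entry. A match describes the letters only.

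Levels are given as RPKM, reads per kilobase of exon after scaling to library depth, which allows a comparison between genes. The 3 tables had been made separately, so values from different populations are set side by side without a test. The libraries held between 9140750 and 36616982 counted reads, the KLG4 tumor libraries (17646493 and 15920195) fewer than the KL tumor libraries (36616982 and 30244654). Mitochondrial genes took 22.3% to 31.5% of the reads in TRM KL libraries and 2.95% to 5.78% in TRM KLG4 libraries. In tumor cells the order was the other way, at 7.38% and 8.26% in KL and 14.8% and 14.7% in KLG4. Across all genes tested, the median log2 fold change was -0.09 in tumor cells, 0.38 in TRMs and 0.02 in MDMs, and in TRMs it became 0.00 after scaling to reads outside mitochondrial genes. In TRMs the KL libraries had the Y-linked gene Eif2s3y at 12.3 and 14.7 RPKM and the KLG4 libraries had it at 0, so sex and genotype cannot be told apart there. In each of the 4 tumor libraries Xist, at 4.17 to 6.18 RPKM, was found together with Eif2s3y, at 7.27 to 9.26 RPKM. In the MDM table Xist was at 0.839 RPKM in KL replicate 2 and between 19.4 and 21.8 RPKM in the other 3 libraries. The 2 KLG4 tumor libraries lay closer together than any other pair, with a chi-square of 3.28 per gene against 28.9 to 131.6 in the other 5 groups.

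**Figure D1:**
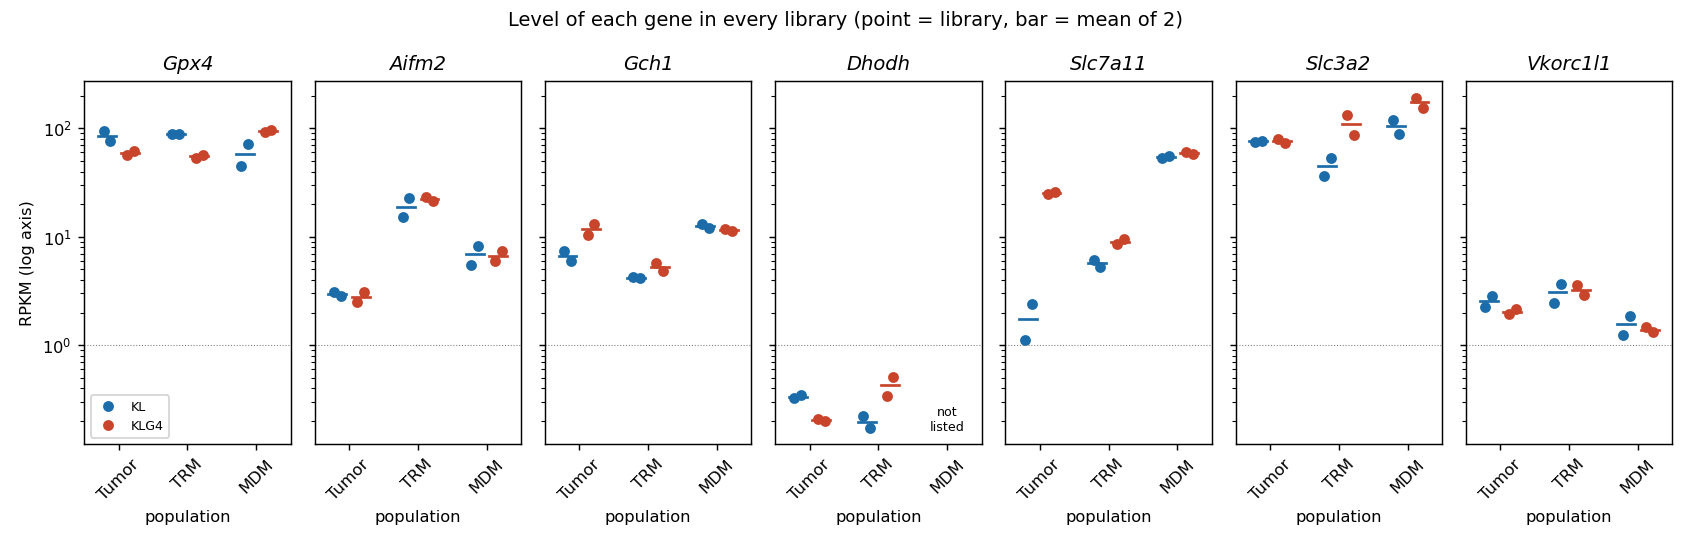
Level of each of the 7 genes in RPKM (log axis) in every library, by population on the horizontal axis, with KL in blue, KLG4 in red and a bar at the mean of 2 libraries; the dotted line is 1 RPKM. Slc7a11 in tumor cells lay at 1.12 and 2.38 RPKM in KL and at 24.6 and 25.8 RPKM in KLG4, and Dhodh was under 1 RPKM in every library that listed it.

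In KL tumor cells Gpx4 and Slc3a2 were the highest of the 7 genes, at means of 85.9 and 76.0 RPKM with overlapping ranges. Gch1 followed at 6.70 RPKM, and Aifm2, Vkorc1l1, Slc7a11 and Dhodh lay below. In KLG4 tumor cells Slc7a11, at a mean of 25.2 RPKM, stood next after Slc3a2 (76.9) and Gpx4 (59.1). Slc7a11 and Gch1 rose and Gpx4 fell in KLG4 tumor cells, 3 of the 6 members tested, where 40.3% of all 13770 genes tested passed the same threshold (limma, adjusted p under 0.05, n = 2 against 2). Without KLG4 replicate 1 or KLG4 replicate 2 the number of genes called fell from 5543 to 1990 or 1927. Genes called higher made up 20.6% and genes called lower 19.6% of the table, and 50.4% had an unadjusted p under 0.05. With shares of this size across the table, 3 of 6 is not a result about these genes as a group.

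Gpx4 measured 95.0 and 76.8 RPKM in KL tumor cells and 56.4 and 61.9 RPKM in KLG4 tumor cells. Both KLG4 libraries lay below both KL libraries, as 42.2% of all genes tested did. The fall was 0.69-fold, a log2 fold change of -0.53 (SE 0.15, 95% interval -0.90 to -0.16, limma adjusted p = 0.0360). The call was lost under TMM scaling (-0.45, limma adjusted p = 0.108) and after scaling to reads outside mitochondrial genes (-0.42, limma adjusted p = 0.0716). It was also lost without KLG4 replicate 1 (-0.46) or KLG4 replicate 2 (-0.60), in fits that left 1 KLG4 library. Each KLG4 library of the tumor gate thus still held over 56 RPKM of Gpx4.

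Slc7a11, the cystine-carrying chain of system xc-, measured 1.12 and 2.38 RPKM in KL tumor cells and 24.6 and 25.8 RPKM in KLG4 tumor cells. These values rest on 570 and 1002 reads in KL and on 6047 and 5729 reads in KLG4. Of the recovered read numbers below 30, between 17.03% and 30.7% were odd, so both reads of a pair may have been counted and the fragments may be fewer. The groups did not overlap, and the rise was 14.6-fold (log2 3.86, SE 0.34, 95% interval 3.0 to 4.73, limma adjusted p = 9.6e-04). It passed the threshold under every alternative run, with a log2 fold change between 3.29 and 4.38. Slc3a2, the partner chain that also serves other amino acid transporters, measured 74.8 and 77.2 RPKM in KL and 80.0 and 73.9 RPKM in KLG4. The groups overlapped, with a log2 fold change of 0.02 and a 95% interval of -0.26 to 0.30 (limma adjusted p = 0.915). Slc7a11 over Slc3a2 was thus 0.0149 and 0.0308 in KL and 0.308 and 0.350 in KLG4, a ratio 14.4 times higher.

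Gch1, the enzyme of the first step of tetrahydrobiopterin synthesis, measured 7.36 and 6.04 RPKM in KL tumor cells and 10.5 and 13 RPKM in KLG4 tumor cells. The KLG4 values were the higher ones, as for 32.5% of all genes tested, and the rise was 1.74-fold (log2 0.80, SE 0.18, limma adjusted p = 0.0206). The call was lost without KLG4 replicate 1 (log2 0.95, adjusted p = 0.0970) or KLG4 replicate 2 (log2 0.65, adjusted p = 0.199). Its deposited length, 2775 bases, was shorter than the 6251 exonic bases of the newer annotation used here, which sets its RPKM against other genes but not its fold change.

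Aifm2 and Vkorc1l1 did not pass the test in tumor cells, and Dhodh was not tested. Aifm2 measured 3.06 and 2.86 RPKM in KL and 2.49 and 3.12 RPKM in KLG4, with overlapping groups and a log2 fold change of -0.08 (95% interval -0.58 to 0.41). Vkorc1l1 measured 2.26 and 2.84 RPKM in KL and 1.94 and 2.14 RPKM in KLG4, which did not overlap, but the difference of -0.30 did not pass the test (limma adjusted p = 0.293). Under quantile scaling it passed, at -0.57 (adjusted p = 0.0444). Dhodh, the mitochondrial enzyme of pyrimidine synthesis, was below the level tested, at 0.324 and 0.345 RPKM in KL and 0.206 and 0.199 RPKM in KLG4. These Dhodh values rest on 75 and 66 reads in KL and on 23 and 20 reads in KLG4, and both KLG4 values were lower.

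Marker genes of other cells moved in the same libraries. All 10 leukocyte markers were called higher in KLG4 tumor libraries. Their summed level was 26.0 and 37.0 RPKM in the KL libraries against 325.4 and 330.1 RPKM in the KLG4 libraries. Of the 10, Cd52, Rac2 and Cd48 were under 1 RPKM in both KL libraries, so they were tested only through KLG4 and had to differ. Ptprc, which encodes CD45, the antigen the gate was meant to leave out, measured 0.834 and 2.06 RPKM in KL and 26.7 and 27.4 RPKM in KLG4. All 8 tested markers of monocyte-derived macrophages were higher. The 9 listed ones summed to between 52.8 and 62.4 RPKM in KL and between 640.0 and 648.7 RPKM in KLG4. Apoe made up most of that sum, at 33.4 and 36.5 RPKM in KL and 440.6 and 446.4 RPKM in KLG4. The study reported Apoe itself as more highly expressed in KLG4 tumor cells. Cx3cr1, Ccr2 and C1qc were under 1 RPKM in both KL libraries and were tested only through KLG4. Markers called higher numbered 8 of 9 for neutrophils, 6 of 10 for alveolar macrophages and 8 of 10 for fibroblasts. They numbered 9 of 9 for T cells, 4 of 6 for endothelial cells and 7 of 8 for B and plasma cells. The other B and plasma cell marker was lower. Among all genes tested, 20.6% were called higher. All 7 B and plasma cell markers called higher were under 1 RPKM in both KL libraries. So were Cd3d, Cd3e, Cd3g, Lck, Cd4 and Cd5 (T cells), Cxcr2, Mmp9 and Camp (neutrophils) and Siglecf (alveolar macrophages). The same held for Lum, Pdgfra and Pdgfrb (fibroblasts) and Kdr (endothelial cells). All these were tested only through KLG4 and had to differ, so their calls add nothing. All 10 epithelial markers and 9 of 10 markers of alveolar type II cells were lower, Epcam going from 638.0 and 419.8 RPKM to 214.5 and 211.3 RPKM. Cd8a, Ms4a1 and Pou2af1 were among the markers at 0 in KL replicate 2.

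Slc7a11 was also the gene of the 7 that stood highest in MDMs relative to KL tumor cells, at 53.1 to 61.1 RPKM. Divided by Ptprc within each library, Slc7a11 in tumor cells was 1.34 and 1.15 in KL and 0.921 and 0.945 in KLG4, lower in both KLG4 libraries. In MDMs the same ratio was 0.513 and 0.593 in KL and 0.557 and 0.544 in KLG4. Gch1 over Ptprc in tumor cells was 8.83 and 2.93 in KL and 0.393 and 0.475 in KLG4. Ptprc was taken as the divisor after its values were seen, and the part of these other cells in the changes of Slc7a11, Gch1 and Gpx4 was not tested. In bulk samples fewer cells of a type and less RNA per cell cannot be told apart.

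**Figure D2:**
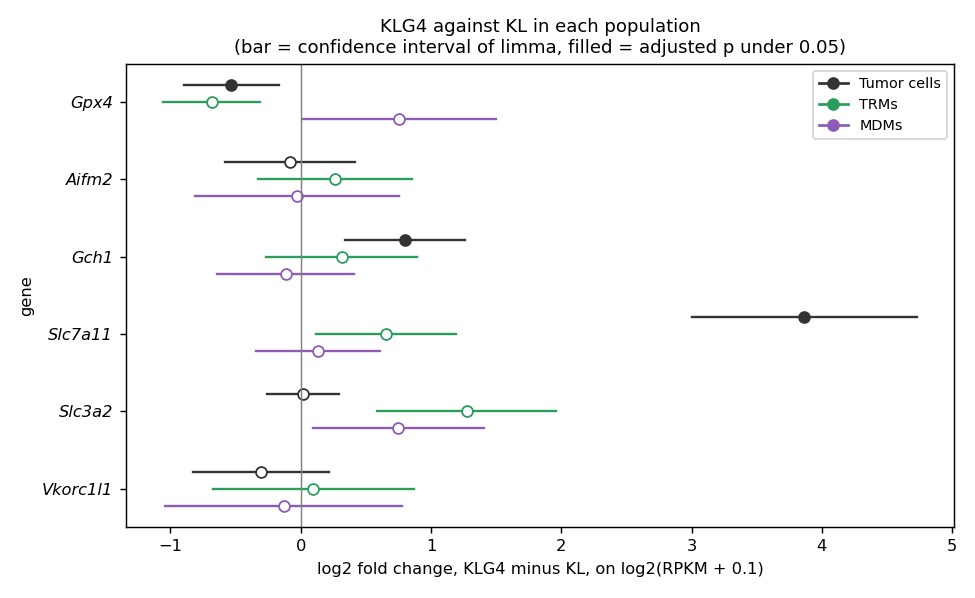
Log2 fold change of KLG4 against KL on log2(RPKM + 0.1) for the 6 members tested (vertical axis), in tumor cells, TRMs and MDMs, with the 95% interval of limma as bars and filled points for adjusted p under 0.05. Slc7a11 in tumor cells stood at 3.86, Gpx4 was negative in tumor cells and TRMs and positive in MDMs at 0.76, and no point of TRMs or MDMs was filled.

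In TRMs no member passed the threshold, which 1.8% of all 10990 genes tested did, 1.36% as higher and 0.437% as lower. At an unadjusted p under 0.05 limma called 3 members, Gpx4, Slc7a11 and Slc3a2, where 28.3% of all genes were called. Gpx4 measured 89.8 and 88.2 RPKM in KL and 53.8 and 57.0 RPKM in KLG4. The groups did not overlap, and the log2 fold change was -0.68 (SE 0.15, limma adjusted p = 0.0697), or -1.06 relative to the median of all genes. Both libraries lay lower in KLG4 for 8.95% of all genes tested in TRMs and higher for 53.7%. With genes at a mean of at least 5 RPKM Gpx4 passed (adjusted p = 0.0462), as it did with limma-voom on recovered reads (-1.08, adjusted p = 0.00380).

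Slc3a2 measured 36.6 and 53.7 RPKM in KL TRMs and 132.0 and 87.3 RPKM in KLG4 TRMs. All KLG4 values were higher, at a log2 fold change of 1.27 (SE 0.28, limma adjusted p = 0.0690), or 0.89 relative to the median of all genes. Slc7a11 measured 6.13 and 5.26 RPKM in KL and 8.53 and 9.48 RPKM in KLG4, a log2 difference of 0.65 (limma adjusted p = 0.130), or 0.27 relative to the median of all genes. Slc7a11 over Slc3a2, at 0.167 and 0.0981 in KL and 0.0646 and 0.109 in KLG4, overlapped between the groups.

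Aifm2 was at its highest in TRMs, with 15.3 and 22.7 RPKM in KL and 23.4 and 21.3 RPKM in KLG4, against 5.52 to 8.30 RPKM in MDMs and 2.49 to 3.12 RPKM in tumor cells. These ranges did not overlap between populations, while the genotypes overlapped within each. Gch1 in TRMs lay at 4.25 and 4.14 RPKM in KL and 5.68 and 4.84 RPKM in KLG4, and Vkorc1l1 at 2.47 and 3.66 against 3.58 and 2.91 RPKM, with limma adjusted p values of 0.409 and 0.857. For Aifm2, Gch1 and Vkorc1l1 the sign of the TRM difference turned negative when the libraries were rescaled. Dhodh, below the level tested, was at 0.221 and 0.173 RPKM in KL and 0.342 and 0.511 RPKM in KLG4, on 10 to 58 reads. Among markers in TRMs, 3 of 10 for alveolar macrophages, 1 of 9 for monocyte-derived macrophages and 1 of 2 for fibroblasts were called higher. For alveolar type II cells 2 of 9 were called lower, and none of the other 6 lists had a call. Of 8 tested epithelial markers, 7 had an unadjusted p under 0.05 with limma, where 28.3% of all genes did. Their median log2 fold change was -2.49, beside 0.38 for all genes, and 2 of the 8 were higher. Sftpc, which encodes surfactant protein C, was at 87.1 and 106.7 RPKM in KL and 16.4 and 40.4 RPKM in KLG4. The part of these markers in the TRM values was not tested.

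In MDMs no gene of 10475 passed the threshold (0%), members included, and at an unadjusted p under 0.05 limma called 706 genes (6.74%), among them Gpx4 and Slc3a2. Gpx4 measured 44.9 and 71.3 RPKM in KL and 93.6 and 97.7 RPKM in KLG4. Both KLG4 libraries were higher, as for 25.4% of all genes, at a log2 fold change of 0.76 (SE 0.28, 95% interval 0.017 to 1.5, limma adjusted p = 0.679). Slc3a2 measured 120.5 and 88.1 RPKM in KL and 192.8 and 155.8 RPKM in KLG4 (log2 0.75, limma adjusted p = 0.679). Without KL replicate 1 Slc3a2 passed (log2 0.98, adjusted p = 0.0313), in a fit that called 2682 genes. KL replicate 2 stood apart from the other 3 MDM libraries, with markers of monocyte-derived macrophages at a sum of 2841 RPKM against 1177 to 1406 RPKM. Without it the log2 fold change of Gpx4 was 1.09 (adjusted p = 0.184 with limma). No marker of any of the 10 lists was called in MDMs. Epithelial markers summed to 79.8 and 274.9 RPKM in KL and 19.3 and 62.3 RPKM in KLG4, and their part in the MDM values was not tested.

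Slc7a11 was highest in the libraries labelled MDMs, at 53.1 and 55.5 RPKM in KL and 61.1 and 58.0 RPKM in KLG4. All 10 neutrophil markers were present in these libraries and summed to between 10719 and 23463 RPKM, against 87.8 to 238.9 RPKM in TRMs. S100a9 made up most of that sum, at 9379 to 21106 RPKM, and Csf3r, the receptor of a neutrophil growth factor, was at 208.4 to 323.1 RPKM. Their part in the Slc7a11 level was not tested. Both KLG4 values were higher, but the difference did not pass the test (log2 0.13, 95% interval -0.34 to 0.61, limma adjusted p = 0.801). In the order of Slc7a11 levels over the 6 groups, MDMs of both genotypes stood first, then KLG4 tumor cells, KLG4 TRMs, KL TRMs and KL tumor cells, and no neighbours overlapped. Gch1 in MDMs, at 13.1 and 12 RPKM in KL and 11.9 and 11.2 RPKM in KLG4, was lower in both KLG4 libraries, as for 19.1% of all genes, and overlapped with KLG4 tumor cells. Aifm2 and Vkorc1l1 overlapped between genotypes, with log2 differences of -0.03 and -0.13, and Dhodh had no row in the MDM table.

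**Figure D3:**
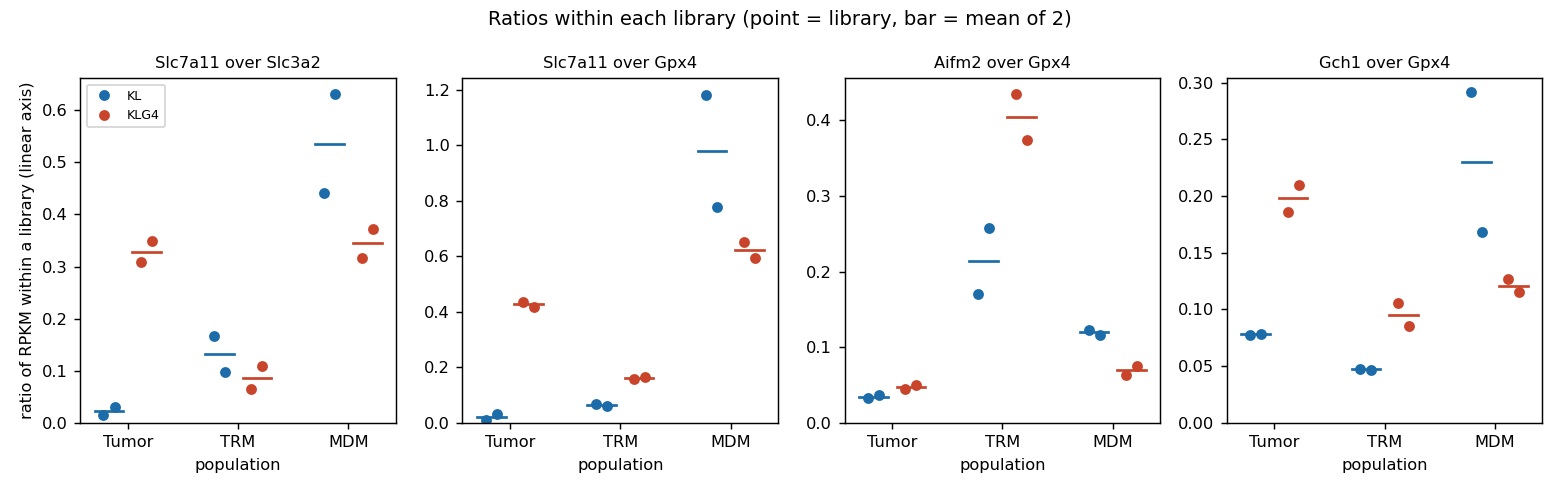
Ratio of RPKM between members within each library (linear vertical axis from 0) by population, with KL in blue, KLG4 in red and a bar at the mean of 2 libraries. Slc7a11 over Slc3a2 in tumor cells was at most 0.0308 in KL and at least 0.308 in KLG4, while in MDMs the KLG4 libraries lay lower.

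Ratios within a library do not depend on its scaling, and they are given as a description without a test. Over Gpx4, Gch1 in tumor cells was 0.0775 and 0.0786 in KL and 0.186 and 0.210 in KLG4, and Slc7a11 was 0.0118 and 0.0310 in KL and 0.437 and 0.418 in KLG4, ratios of the means of 2.54 and 19.98. Aifm2 and Slc3a2 over Gpx4 were also higher in both KLG4 tumor libraries, and Dhodh and Vkorc1l1 overlapped. In TRMs all 6 ratios over Gpx4 were higher in both KLG4 libraries, between 1.70 times for Vkorc1l1 and 3.92 times for Slc3a2. Dhodh, among them, rested on 10 to 58 reads. In MDMs 4 of 5 were lower in both KLG4 libraries, between 0.526 times for Gch1 and 0.636 times for Slc7a11, and Slc3a2 over Gpx4 overlapped. These ratios all share Gpx4 as divisor. Relative to the median of all genes, the log2 fold change of Gpx4 was -0.44 in tumor cells, -1.06 in TRMs and 0.73 in MDMs. A gene at that median would move the same way over Gpx4, so the counts are not a result about these members as a group. The share of all genes with such a ratio was not computed.

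The genes that supply these systems were examined as lists. In tumor cells 1 of 8 tested genes of glutathione supply rose and 1 fell (median log2 fold change -0.30, all genes -0.09, with 20.6% of all genes called higher and 19.6% lower). Chac1, which breaks glutathione down, rose from 0.767 and 1.07 RPKM to 2.46 and 2.19 RPKM (log2 1.26, limma adjusted p = 0.0118). Gclc, the catalytic subunit of the first enzyme of glutathione synthesis, fell by 0.59 on the log2 scale (limma adjusted p = 0.0394). Of 10 tested genes of coenzyme Q synthesis Coq7 fell (log2 -0.64), and the median was -0.15. Coq8a was called higher (log2 1.26), but at 0.5005 and 0.506 RPKM in KL and 1.15 and 1.57 RPKM in KLG4 it reached the level tested only in KLG4. None of 5 tetrahydrobiopterin genes passed, Pts coming nearest in size (log2 0.56, limma adjusted p = 0.0541), at a median of -0.12. Vkorc1, the vitamin K epoxide reductase of the clotting system, rose among 4 tested genes of the vitamin K cycle (log2 0.83, limma adjusted p = 0.0117), and the 2 genes around Dhodh did not pass, with Umps at -0.19.

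Among the other glutathione peroxidases 4 of 5 tested rose in tumor cells and none fell, at a median of 0.86, where 20.6% of all genes tested rose. Gpx3, the secreted plasma peroxidase, rose from 4.47 and 3.96 RPKM to 45.2 and 46.1 RPKM (log2 3.41). Gpx8, a peroxidase of the endoplasmic reticulum, and Gpx1 rose by 0.86 and 0.45 on the same scale. Gpx7, at 0.593 and 0.590 RPKM in KL against 6.11 and 2.73 RPKM in KLG4, entered the test only through the KLG4 libraries and had to differ, so its call adds nothing to the count. Of 7 tested drivers of ferroptosis 2 rose and 3 fell (median -0.59), against the same background of 20.6% and 19.6%. Alox5, a lipoxygenase of leukocytes, was at 0.313 and 0.564 RPKM in KL and 4.65 and 4.80 RPKM in KLG4 (log2 3.21), and it too entered the test only through KLG4. Ncoa4, the ferritin receptor of autophagy, named after its values were seen, rose by 0.54. Tfrc, the transferrin receptor, fell by 0.79, Cyb5r1 fell by 0.65 and Acsl4, which loads polyunsaturated fatty acids for phospholipids, fell by 0.59. These changes stood beside the marker changes given above, and the part of other cells in them was not tested.

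The list of ferroptosis genes that the study itself used, and which is therefore not independent evidence of its direction, had 34 tested genes in tumor cells, of which 6 rose and 9 fell (median -0.17), where 20.6% of all genes tested rose and 19.6% fell. Its largest changes were Slc7a11, Cybb, the phagocyte oxidase subunit (log2 3.23), Acsl1 (1.44) and the ferritin heavy chain Fth1 (1.29). In TRMs and MDMs no gene of any of these 8 lists passed the threshold.

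In TRMs the medians were 0.03 for glutathione supply, 0.40 for coenzyme Q, -0.12 for tetrahydrobiopterin, 0.71 for vitamin K, 0.25 for pyrimidine synthesis, -0.11 for glutathione peroxidases, 0.79 for drivers and 0.37 for the study's list, beside 0.38 for all genes. The gene with the largest difference was Gss (-0.39) for glutathione supply, Coq4 (1.16) for coenzyme Q, Ggcx (1.75) for vitamin K, Cad (1.19) for pyrimidine synthesis and Gpx3 (-0.34) for glutathione peroxidases. Coq4, Ggcx and Cad were under 1 RPKM in both KL libraries and were tested only because both KLG4 libraries exceeded it. Nothing is therefore read from their size or from the medians of their lists. The TRM medians of pyrimidine synthesis and of glutathione peroxidases rest on 2 tested genes each. Alox15, a lipoxygenase, was listed at 0 in both KL libraries and at 1.28 and 2.70 RPKM in KLG4. It too entered the test only through KLG4, and the median of the drivers holds it. In MDMs the medians in the same order were -0.21, -0.03, 0.11, -0.16, -0.58, -0.74, 0.37 and 0.07, beside 0.02. The values for vitamin K and pyrimidine synthesis there rest on 1 tested gene each and that for glutathione peroxidases on 2. The largest differences in MDMs were Gss (-0.76), Coq2 (-1.05), Pcbd1 (1.64), Nqo1 (-0.16), Umps (-0.58), Gpx3 (-1.35), Lpcat3 (1.08) and Prnp (1.57), none of which passed the test. Pcbd1 and Lpcat3 were under 1 RPKM in both KL libraries and were tested only through KLG4, so nothing is read from their size.

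**Figure D4:**
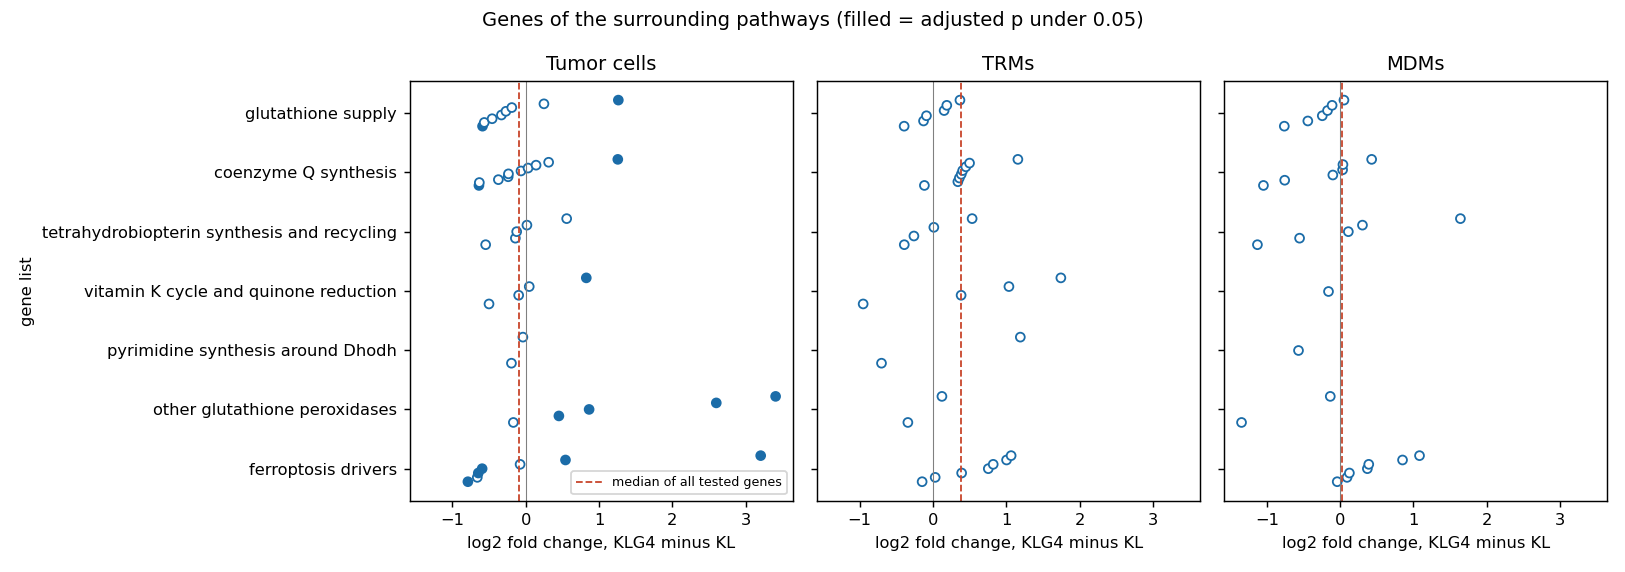
Log2 fold change of KLG4 against KL for each tested gene of 7 lists (vertical axis) in tumor cells, TRMs and MDMs, with filled points for adjusted p under 0.05 and a dashed line at the median of all genes tested; Alox15 in TRMs, listed at 0 in KL, is not drawn. Filled points occur in tumor cells only, where Gpx3 (3.41) and Alox5 (3.21) lie farthest to the right.

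Over the 12 libraries, the genes most like each member by Pearson r of log2(RPKM + 0.1) were taken from 6061 other genes (6062 for Vkorc1l1) tested in all 3 tables at a mean of at least 5 RPKM. Slc7a11 was nearest to Ptafr (r = 0.995), the receptor of platelet-activating factor, and Cyp4f18 (0.994), Aifm2 to Fkbp5 (0.986) and Fam96a (0.982), and Gch1 to Ddit3 (0.974), a stress-response transcription factor, and Stx11 (0.965). Slc3a2 was nearest to Zswim8 (0.962) and Wbp11 (0.956), and Vkorc1l1 to Ddx41 (0.982) and Hsd17b4 (0.974). Gpx4 had no near match: the highest were Gm10785 (0.648), RP23-269H21.1 (0.575), Gm37401 (0.572), Atox1 (0.555) and Ost4 (0.551). Among the members themselves Gch1 and Slc7a11 had r = 0.740 and Gch1 and Vkorc1l1 r = -0.839. The 12 points fall into 3 populations and share the tables' scaling, so these values are a description and carry no test.

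Sbno2 and Stk11, the next genes after Gpx4 on chromosome 10, gave further values in the same libraries. Sbno2 measured 14.5 and 17.8 RPKM in KL tumor cells and 108.6 and 112.4 RPKM in KLG4 tumor cells, and it measured 69.3 and 67.8 against 347.1 and 332.7 RPKM in MDMs. Stk11, the symbol of Lkb1, was at 25.9 and 25.8 RPKM in KL tumor cells and 61.6 and 61.6 RPKM in KLG4 tumor cells. Both genes were higher in both KLG4 libraries of all 3 populations. The same held for 32.5% of all genes tested in tumor cells, 53.7% in TRMs and 25.4% in MDMs. Polr2e, the neighbour on the other side of Gpx4, was added after its values were seen. It fell in tumor cells, with KL libraries at 23.5 and 21.1 RPKM and KLG4 libraries at 13.9 and 14.3 RPKM (log2 -0.65, limma adjusted p = 0.0125). Both KLG4 tumor libraries lay lower for 42.2% of all genes tested. Polr2e did not pass in TRMs (log2 -0.23, limma adjusted p = 0.488) or in MDMs (log2 0.007, limma adjusted p = 0.996).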

How the data were processed

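Per the labels and the study's methods, reads from poly(A) RNA in non-directional libraries were trimmed with Trim Galore 0.6.4, aligned with HISAT2 2.0.5 to GRCm38 and counted per gene with featureCounts 2.0.0 without strand. The authors deposited RPKM values in 1 table per population, with no further scaling between libraries; their columns of fold changes, p-values, FDR, mean log2 CPM and F statistics were not used. Depth was recovered from the steps of the values, of which 99.99% or more gave whole reads within 0.05 of a whole number.

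Groups came from the sample titles. Each table was tested alone with limma 3.58.1 (R 4.3.3, mean-variance trend) on log2(RPKM + 0.1), for genes with at least 1 RPKM in 2 of 4 libraries, with Benjamini-Hochberg adjustment over all genes tested. Fold changes are on that scale and come out too small for genes of low level. The scripts were tested on simulated data and used Python 3.11.15, pandas 2.3.3, numpy 2.4.6 and matplotlib 3.10.9. The members and lists were chosen with earlier results of these data known. Named genes were the members, up to 4 genes of each list past the threshold (otherwise the 1 with the largest change), the nearest genes by r (5 for Gpx4, 2 for each other member), markers, Sbno2, Stk11, Xist and Eif2s3y; Ptprc as a divisor was added after its values were seen. Gene positions and exons came from GENCODE M21 and promoters from RefSeq GRCm38.p6. Alternatives were other pseudocounts, filters and scalings, no trend, the replicate number as a block, limma-voom on recovered reads, and each library left out. A fit with a library left out took its spread from the other group alone, so its p-values and calls carry that limit. A few genes that the rule would name are not reported here.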

Additional observations from a re-analysis of the deposited data

Results flagged for a closer look

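In 4 of 18 comparisons of a member between populations, both KLG4 libraries moved one way in one population and both moved the other way in another. The difference of the log2 fold changes of Gpx4 was -1.29 between tumor cells and MDMs and -1.44 between TRMs and MDMs, Gpx4 being lower in KLG4 in the first of each pair and higher in MDMs. For Gch1 it was 0.91 between tumor cells and MDMs and 0.43 between TRMs and MDMs, with both KLG4 libraries higher in tumor cells and TRMs and lower in MDMs. These differences were not tested, since the tables had been normalized separately, and the Gch1 change in TRMs turned negative under other scalings. Over all genes tested in both populations, 12.8% moved in opposite directions between tumor cells and MDMs, 7.18% between TRMs and MDMs and 24.5% between tumor cells and TRMs, or 15.1% of all pairs.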

How the results depend on the processing

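Slc7a11 in tumor cells passed under every alternative. Gpx4 in tumor cells no longer passed under TMM scaling (-0.45), scaling outside mitochondrial genes (-0.42), no trend (-0.53) or limma-voom (-0.45), and ranged from -0.68 to -0.38 with a library left out, losing the call without KLG4 replicate 1 or KLG4 replicate 2. Members called in tumor cells then ranged from 1 to 3, and were 4 under quantile scaling, which added Vkorc1l1 (-0.57, adjusted p = 0.0444). Gpx4 in TRMs passed with the higher filter (-0.68) and limma-voom (-1.08), where 2 members were called, Gpx4 and Slc3a2; with a library left out Gpx4 ranged from -0.72 to -0.64 and members called from 0 to 1, the 1 being Slc3a2 without KL replicate 2 or KLG4 replicate 2. In MDMs no alternative with all libraries called a member, and Gpx4 ranged from 0.42 to 1.09 with a library left out. Slc7a11 in TRMs lay between 0.26 and 0.27 under TMM, quantile, non-mitochondrial scaling and limma-voom, against 0.65. Sign changes were small. In TRMs under TMM, quantile, non-mitochondrial scaling and limma-voom, Aifm2 became -0.13, -0.093, -0.13 and -0.12, Gch1 -0.068, -0.11, -0.067 and -0.037, and Vkorc1l1 -0.28, -0.33, -0.28 and -0.26. With a library left out, in tumor cells Aifm2 ranged from -0.24 to 0.077 and Slc3a2 from -0.040 to 0.073. In TRMs Aifm2 ranged from -0.022 to 0.55 and Vkorc1l1 from -0.18 to 0.37, and in MDMs Aifm2 ranged from -0.32 to 0.26 and Vkorc1l1 from -0.40 to 0.14. Aifm2 in tumor cells was 0.028 under non-mitochondrial scaling. The cause of these changes was not tested. Genes called in TRMs numbered 198, 12 with no trend, 30 under TMM scaling, 762 with limma-voom and 2382 without KL replicate 2.

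Within a population, same-numbered libraries did not deviate together (r = 0.019 in tumor cells, -0.060 in TRMs, 0.054 in MDMs). This does not exclude a pairing, and a pairing across populations was not examined. With the replicate block, members called stayed 3, 0 and 0, Gpx4 kept -0.53 in tumor cells (adjusted p = 0.0474), and no member changed its call; 470 genes were called in TRMs. With 2 libraries per group the intervals are wide.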
